A study of Mus musculus with 10 samples.

Results

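The genes described here build the mitochondrial ribosome and the machinery that imports proteins into mitochondria. The members are the array clones whose annotation gives a single gene symbol of a numbered Mrpl, Mrps, Timm or Tomm gene, or Tufm, Tsfm, Gfm1, Gfm2, Mtif2 or Mtif3. The symbol alone chose them, and no measured value did. They are 83 of 15600 clones and stand for 69 genes. By role they are 39 large subunit clones (35 genes), 15 small subunit clones (13 genes), 6 clones of translation factors (5 genes), 11 of the outer membrane import machinery (6 genes) and 12 of the inner membrane import machinery (10 genes). A further 5 clones name a member beside another gene and were left out.

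Mitochondria make a small set of respiratory chain proteins on their own ribosome, the mitoribosome. Its large subunit (Mrpl proteins) joins amino acids and its small subunit (Mrps proteins) reads the mRNA. The proteins of the mitoribosome are encoded in the nucleus and made in the cytosol. They are imported through the TOM complex of the outer membrane and the TIM complexes of the inner membrane. Collecting duct cells spend much ATP on the sodium pump, and glucocorticoids act on sodium transport in this segment of the nephron.

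The RNA came from M-1 cells, a line derived from mouse cortical collecting duct, kept in steroid-free medium before the experiment. Treated cells received 100 nM dexamethasone, a synthetic glucocorticoid, for 3 h, and control cells steroid-free medium for 3 h. Spotted cDNA slides were read in both colours. The 3 treated arrays, numbered 3, 4 and 5 in the titles, carried RNA of treated cells in Cy5 and control RNA in Cy3, and 2 control pairs carried control RNA in both dyes, without a dye swap. Titles set the groups. In 5 of 7 control-titled channels the treatment field nonetheless mentions dexamethasone, and in 2 channels the labelling protocol names the other dye, so every direction rests on the titles. Labels do not say whether replicates came from separate cultures, so the p-values speak of the spread among these samples alone, and that spread may be technical. Control pairs and treated pairs lie on different arrays, so treatment and slide set cannot be told apart.

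The control pairs list 99.4% and 99.2% of the spots, the treated arrays 12.1%, 12.8% and 12.8%, and the listed treated ratios leave a gap around the centre of each array. An unlisted clone thus has no measured ratio on that array. A clone is called listed on an array where at least 1 of its 2 spots has a value, and listed higher or lower by whether the Cy5/Cy3 ratio lies above or below the array's centre. All ratios are centred log2 Cy5/Cy3, a difference and not a level. Because only outlying ratios are listed, treated ratios can overstate the difference, and precision is limited by how few arrays there are. Of the 19 collecting duct markers considered, 6 have a clone, and the keratins Krt8, Krt18 and Krt7 lie above the 75th percentile of brightness in both control pairs. The clones of Gata3, Cdh1 and Slc4a1, the other 3 markers measured, lie below it in both. Above it also lie 2 of 9 fibroblast and matrix genes, 0 of 2 proximal tubule genes and 0 of 4 leukocyte and endothelial genes. Brightness of a spotted clone does not settle whether a transcript is present.

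As a group, the mitoribosome and import clones were listed about as often as any clone. On at least 1 treated array 42 of the 83 were listed, 50.6%, against 51.8% of all clones. On at least 2 arrays 10 of 83 were listed, against 13.7% of all clones. By direction, 20 members were listed higher alone, 20 lower alone and 2 both ways, against 23.7%, 22.6% and 4.94% of all clones. Among the 10 clones that could be fitted, limma called 0 higher and 0 lower at an adjusted p under 0.05, where it called 0% of all 2131 clones in each direction. At an unadjusted p under 0.05, 0 members were higher and 3 lower, against 13.5% and 12.4% of all clones fitted, 25.9% either way. The fit holds only clones with listed, outlying ratios on at least 2 treated arrays and sets them against unselected control ratios. Its p-values, adjusted or not, do not allow for that selection and are given as descriptions. The median difference of the 10 was -0.21, against 0.02 over all clones fitted.

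The arrays were not alike. On array 3, 7 of the 83 members were listed (8.43%), against 21.7% of all clones. On arrays 4 and 5, 23 were listed each (27.7%), against 22.6% of all clones on both. Cytosolic ribosomal proteins, the proteins of the other ribosome, had 14.4%, 12.2% and 14.9% of their 181 clones listed. Subunits of oxidative phosphorylation, here those encoded in the nucleus and imported, had 10, 14 and 15 of their 83 clones listed. On at least 1 treated array these groups were listed at 34.8% and 37.3%. No test was made of these shares, and whether array 3 differs for a technical reason was not tested.

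**Figure D1:**
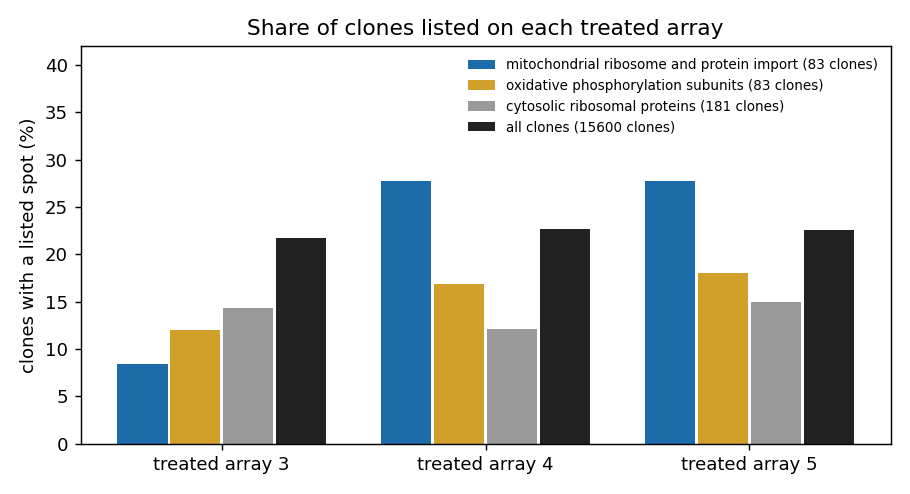
Share of clones (%, vertical axis) with at least 1 listed spot on each treated array, for the mitochondrial members, oxidative phosphorylation subunits, cytosolic ribosomal proteins and all clones. The members stand at 8.43% on array 3 and at 27.7% on arrays 4 and 5, with all clones at 21.7% to 22.6%.

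By array, 2 members were listed higher and 5 lower on array 3, where 10.9% and 10.4% of all clones were. With median centring these were 1 and 6. On array 4, 13 were higher and 9 lower, against 10.9% and 11.3% of all clones, and 1 had its spots on opposite sides. On array 5, 10 were higher and 13 lower, against 11.6% and 10.8%. In all there were 53 listings of a member clone on an array, and 8 of them (15.1%) rest on both spots, against 12.8% over all clones. Most treated values below are therefore 1 spot of 2. Cut to the same share of spots by the size of the ratio, control pair 1 had 12 members higher and 7 lower (11.3% and 10.8% of all clones) and control pair 2 had 8 and 6 (10.2% and 11.5%).

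Large subunit clones were listed lower 19 times and higher 6 times over the 3 arrays, and small subunit clones higher 11 times and lower 3 times. Of 39 large subunit clones, 15 were listed lower alone, 6 higher alone and 0 both ways. Of 15 small subunit clones, 8 were listed higher alone, 1 lower alone and 1 both ways. Of all clones 23.7% were listed higher alone, 22.6% lower alone and 4.94% both ways. The split into subunits follows the gene names, but this contrast was picked out after the listings were seen, and no test was made of it.

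On each treated array the large subunit had more clones listed lower and the small subunit more listed higher. Large subunit clones had 0 higher and 4 lower on array 3, 2 and 6 on array 4, and 4 and 9 on array 5. Small subunit clones had 2 higher and 0 lower, 6 and 1, and 3 and 2. Of all clones, 10.9% were listed higher and 10.4% lower on array 3, 10.9% and 11.3% on array 4, and 11.6% and 10.8% on array 5. The 4 large subunit clones listed on array 3, all lower, are 10.3% of the 39 and so near the share of all clones listed lower. The control pairs, cut in this way, give the background with both channels titled control. There the large subunit had 8 higher and 4 lower in pair 1 and 4 and 3 in pair 2, and the small subunit 2 and 1, and 1 and 1. Uncut, the median of the control means was -0.02 for large subunit clones and 0.10 for small subunit clones. The small subunit was thus the higher there too, without a dye swap. Counting only clones with both spots listed the same way left 0 higher and 2 lower for the large subunit and 0 higher and 1 lower for the small one. Without array 4 the small subunit had 5 listed higher, and without array 5 the large subunit had 2 higher and 10 lower and the small one 1 lower.

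**Figure D2:**
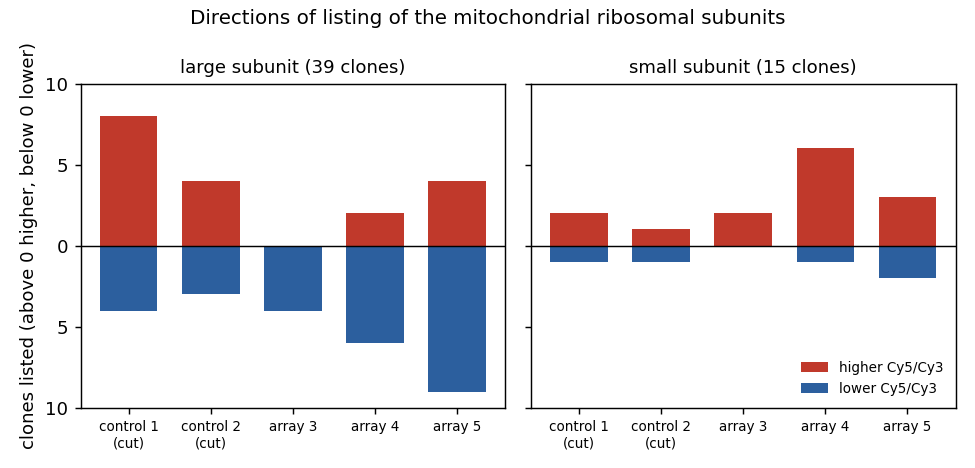
Number of large subunit (left) and small subunit (right) clones listed with a higher ratio (red, above 0) or a lower one (blue, below 0) in each pair; control pairs were cut to the same share of spots as the treated arrays list. On the treated arrays the large subunit has 19 lower and 6 higher listings and the small subunit 11 higher and 3 lower. Of all clones, 10.9% to 11.6% were listed higher and 10.4% to 11.3% lower on each treated array.

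Of the large subunit clones, 4 were listed on 2 treated arrays, each lower on both, and 0 were listed higher on 2. All clones were listed higher on 2 or more arrays at 4.5% and lower at 4.58%. Of the 10 fitted member clones 4 had each treated ratio below both control pairs and 1 had each above both, against 27.4% and 28.5% of all clones fitted. The listed ratio nearest the centre lay 0.29, 0.48 and 0.27 from it on arrays 3, 4 and 5, while control ratios were not selected. Through this selection, a clone listed on 2 arrays in 1 direction tends to lie beyond its control ratios. Such separations, and the limma differences and p-values of these clones, are therefore given below as descriptions only.

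Mrpl13, a large subunit protein with a bacterial counterpart, was measured at clone 9811. Its ratio was -0.61 on array 3 and -0.79 on array 4, against 0.32 and 0.06 in the control pairs, 1 spot on each treated array. Both treated ratios lay below both control ratios. Its limma difference was -0.89 (SE 0.22, adjusted p = 0.187). Read as intensities, the treated Cy5 channels had 493 and 366 and the control Cy3 channels on the same slides 767 and 762. As means against the control arrays after scaling, Cy5 stood at -0.90 and Cy3 at -0.01 (log2). By array, Cy5 was 0.53 on array 3 and -0.16 on array 4, below its 1.26 and 0.90 in the control pairs. Cy3 was 1.14 on array 3, above its 0.94 and 0.84 in the control pairs, and 0.63 on array 4, below both.

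Mrpl35, another large subunit protein, was measured at clone 15199. It had -0.69 on array 4 and -0.69 on array 5, against -0.03 and 0.36 in the control pairs. The treated values came from different spots of the clone, 1 on each array, and did not overlap the control pairs. The limma difference was -0.86 (SE 0.24, adjusted p = 0.187). Scaled Cy5 stood at -0.51 and Cy3 at 0.34 against the control arrays.

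Mrpl44, a large subunit protein related to ribonuclease III, was measured at clone 15173. Its ratio was -0.86 on array 4 from 1 spot and -0.38 on array 5 from both spots, which had -0.38 each. The control pairs gave 0.13 and 0.41, above both treated values. The limma difference was -0.89 (SE 0.28, adjusted p = 0.187). The arrays differed in brightness at this clone (raw intensities). Its Cy3 control channel read 833 on array 4, from the listed spot, against 17402.5 on array 5 and 2812.5 and 11762 on the control arrays, as means of the spots. Its Cy5 channel read 394 on array 4 and 13167.5 on array 5, against 4301 and 13496 in the control pairs. On array 5 the raw Cy3 intensity was thus above both control pairs and the raw Cy5 intensity between them. After scaling (log2), both channels on array 5 lay above both control pairs. Cy3 was 4.40 against 3.06 and 3.51, and Cy5 was 4.02 against 3.19 and 3.92. On array 4 both lay below the control pairs, at 0.78 in Cy3 and -0.08 in Cy5.

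Mrpl50 was measured at 2 clones. Clone 3180 had -0.65 on array 4 and -0.47 on array 5, 1 spot each, against -0.19 and 0.19, and clone 5856 had -0.57 on array 5 against -0.03 and -0.18. The 3 treated ratios of the gene all lay below the 4 control ratios. For clone 3180 the limma difference was -0.56 (SE 0.24, adjusted p = 0.236). With the Cy5 channels alone that difference was 0.04. On the scaled log2 scale, Cy5 of clone 3180 was -0.13 on array 4, below its 1.05 and 0.35 in the control pairs. On array 5 it was 1.61, above both, and Cy3 was 2.08 against 1.24 and 0.17. The number of these clones does not make more samples, since both were read on the same slides.

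Another 17 large subunit clones were listed on 1 treated array. The 11 listed lower had ratios from -1.06 to -0.44. Mrpl11 was at the low end, with -1.06 on array 5 from 1 spot against 0.03 in the control pairs. The others were Mrpl9, Mrpl16 and Mrpl23 on array 3, Mrpl17 and Mrpl45 on array 4, and Mrpl15, Mrpl20, Mrpl36, Mrpl38 and clone 5856 of Mrpl50 on array 5. The 6 listed higher, Mrpl2 and Mrpl4 on array 4 and Mrpl1, Mrpl27, Mrpl42 and Mrpl48 on array 5, had ratios from 0.45 to 0.63. With 1 treated value each, none of these has a spread between treated arrays. Unlisted on every treated array were 18 large subunit clones, among them Mrpl12, which also binds the mitochondrial RNA polymerase, and Mrpl58, a peptidyl-tRNA hydrolase built into the large subunit.

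In the small subunit, 4 clones were listed on 2 treated arrays. Mrps35 was measured at clone 1581 and had 0.75 on array 3 and 0.58 on array 5, against 0.20 and 0.16 in the control pairs. Both treated ratios came from the same spot and lay above both control means. The limma difference was 0.49 (SE 0.20, adjusted p = 0.221). In control pair 1 the spots of this clone gave 0.60 and -0.20, so the distance between spots was larger than the fitted difference.

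Mrps7, a protein that binds the small subunit rRNA, had 0.50 on array 3 and 0.73 on array 4 at clone 10082. Its control pairs gave 0.15 and 0.56, and the groups overlapped. The limma difference was 0.27 (SE 0.26, adjusted p = 0.610). The other clone of Mrps7 was listed on 0 treated arrays.

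Mrps27, a small subunit protein with pentatricopeptide repeats, had the lowest mean treated ratio of the clones listed on more than 1 array. Clone 2958 gave -1.01 on array 4, from both spots, and -0.42 on array 5 from 1 spot. Its control pairs lay far apart, at 0.29 and -0.59, and the groups overlapped. The limma difference was -0.57 (SE 0.43, adjusted p = 0.469). With the Cy5 channels alone it was 1.94. The clone was brighter on the treated arrays in both channels, by 2.51 in Cy3 and 1.94 in Cy5 (log2, scaled). Its Cy3 control channel read 469 and 1398 in the control pairs but 4133 and 4222 on arrays 4 and 5, and its Cy5 channel 397.5 and 1030.5 against 2299.5 and 3100.

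Mrps17 went both ways at clone 15472, with 1.02 on array 4 and -0.60 on array 5, against 0.09 and -0.02 in the control pairs. Its limma difference was 0.17 (SE 0.62, adjusted p = 0.949). The treated values spread on both sides of the control pairs, and the other Mrps17 clone was unlisted.

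The other 6 listed small subunit clones each had 1 treated value, and all 6 were higher. Mrps10, Mrps15, Mrps9 and Mrps11 had 0.91, 0.76, 0.71 and 0.57 on array 4, and Mrps18a and Mrps23 had 0.75 and 0.48 on array 5. Their control means ran from -0.24 to 0.25. Mrps9 was the member without a value in control pair 2. Unlisted were Mrps18b, Mrps25, Mrps36 and the second clones of Mrps7 and Mrps17. Mrps36 carries a ribosomal name but is also known as a subunit of the 2-oxoglutarate dehydrogenase complex.

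**Figure D3:**
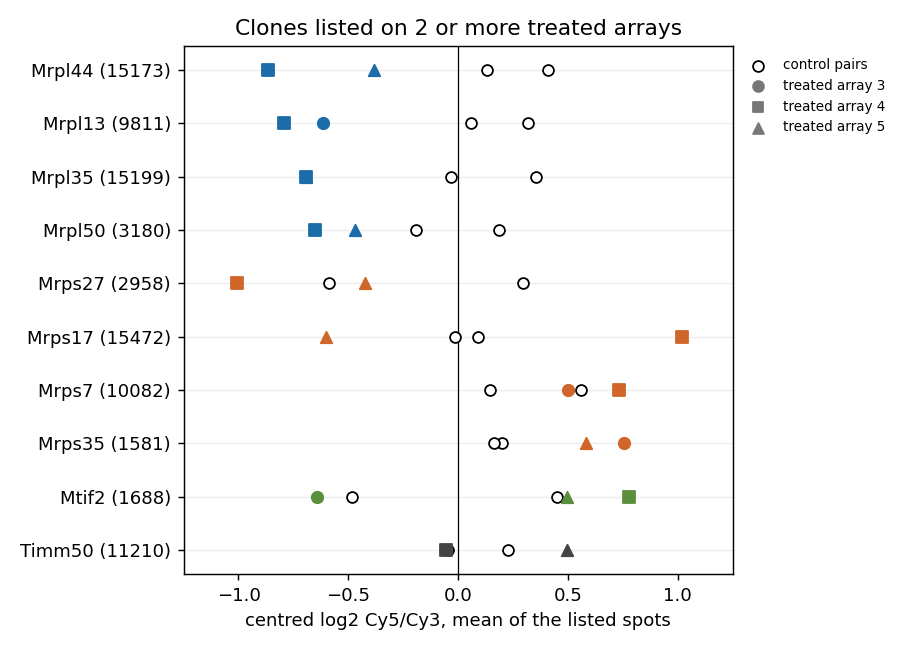
Centred log2 Cy5/Cy3 ratios (horizontal axis) of the 10 member clones listed on 2 or more treated arrays, with open circles for the control pairs and filled symbols for treated arrays 3, 4 and 5, in blue (large subunit), orange (small subunit), green (translation factor) and dark grey (inner membrane import). Mrpl44, Mrpl13, Mrpl35 and Mrpl50 have both treated ratios below both control pairs, Mrps35 has both above, and in the other 5 clones the treated and control ranges overlap; the symbols of arrays 4 and 5 coincide for Mrpl35.

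Among the translation factors, Mtif2, the initiation factor that brings the first tRNA to the small subunit, was the 1 member listed on all 3 treated arrays. Clone 1688 gave -0.64 on array 3, 0.78 on array 4 and 0.49 on array 5, 1 spot each. The control pairs gave 0.45 and -0.48, so control and treated ratios alike lay on both sides of 0. The limma difference was 0.23 (SE 0.54, adjusted p = 0.920). Tsfm, the exchange factor that recharges elongation factor Tu, was listed higher on array 4 at 0.62, with both spots above the centre, against a control mean of 0.08. In control pair 2 the spots of this clone gave -0.53 and 0.60, so the higher of them came near the treated value. Tufm, elongation factor Tu itself, Gfm1, Gfm2 and the second Mtif2 clone were unlisted.

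In the import machinery of the outer membrane, 3 of 11 clones were listed, against 51.8% of all clones. They were 0 on array 3, 1 on array 4 and 2 on array 5, where 21.7%, 22.6% and 22.6% of all clones were listed, and no test was made of so few. All 3 clones of the receptor Tomm20, both of the receptor Tomm22 and the clone of Tomm40, the channel of the outer membrane, were unlisted. Tomm70a, a receptor for carrier proteins, was listed lower at both its clones, with -0.62 on array 4 at clone 1672 and -0.68 on array 5 at clone 9744, the latter from both spots. Their control pairs gave 0.22 and -0.29, and -0.08 and 0.36. Tomm5, a small subunit of the TOM complex, had 0.50 on array 5 at 1 of its 2 clones.

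In the inner membrane and the space before it, 6 of 12 clones were listed, against 51.8% of all clones. Timm13, a small chaperone that escorts membrane proteins between the membranes, was listed higher on array 4 at both its clones, with 0.73 from both spots and 0.65 from 1 spot. Their control pairs lay between -0.15 and 0.12 as means of the spots. The spots of clone 7526, the one with 0.73, gave -0.38 and 0.38 in control pair 2. Timm8b, a related small chaperone, had 0.56 on array 4. Timm17a, a subunit of the TIM23 channel, had -0.64 on array 4, and Timm17b was unlisted.

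Timm50, the TIM23 receptor for presequences, gave opposite directions at its 2 clones on array 5, with -0.49 at clone 9616 from both spots and 0.50 at clone 11210 from 1. On array 4 the spots of clone 11210 lay on opposite sides of the centre and averaged -0.05. Its limma difference was 0.13 (SE 0.29, adjusted p = 0.910). Unlisted were Timm21, Timm22, Timm44, Timm8a1 and Timm8a2, which belong to the channels, the import motor and the small chaperones.

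Clones of 1 gene, read on the same slides, can be set beside each other, though few were listed together. Of the 69 genes 13 have more than 1 clone, 27 clones in all. In 2 of them (Tomm20 and Tomm22) no clone was listed, in 7 a single clone was, and in 4 genes 2 clones were. Timm13, Mrpl50 and Tomm70a had their listed clones in 1 direction and Timm50 in both. The Tomm70a clones were listed on different arrays. So few genes, without the share over all genes with several clones, do not show how far the ratio follows the gene. Across these genes the control means of the clones differed by 0.00 for Timm13 up to 0.47 for Tomm20. The 0.00 is an agreement of means only, since the spots of Timm13 clone 7526 gave -0.38 and 0.38 in control pair 2.

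The control pairs measured nearly every member and show the ratio when both channels hold RNA titled control. Of the members 82 of 83 had a value in both pairs, and limma called 0 higher in Cy5 and 0 lower at an adjusted p under 0.05, where it called 0.0321% and 0.289% of all 15561 clones. At an unadjusted p under 0.05, 1 member was higher and 2 lower, against 8.68% of all clones either way. Mrpl18 had the lowest mean, with -0.43 and -0.62 in the pairs and a limma mean of -0.53 (standard error 0.19, adjusted p = 0.245). This fit gave every member the same standard error. Its p-values thus rank the means and do not reflect the spread of the single clone. Mrpl24, Timm17b, Tufm and Mrpl21 followed with -0.42, -0.35, -0.30 and -0.27. At the upper end Mrps25 had 0.37 and 0.40, a mean of 0.39 with a limma adjusted p of 0.518, and Mrps7, Mrpl20, Tomm20 (clone 15366) and Mrpl48 (clone 6534) had 0.35, 0.35, 0.32 and 0.30. Each of these lies within a range that limma did not separate from 0.

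The spread of the members in the control pairs was close to that of all clones. The pairs differed by a median of 0.23 for a member and 0.24 for any clone, and by up to 0.95 for the widest member, Timm8a2. Spots of a clone differed by a median of 0.23 and 0.22 in the pairs, against 0.25 and 0.25 over all clones. The SD of the members was 0.26 in each pair, against 0.26 and 0.31 over all clones. The median of the members' control means was 0.01.

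**Figure D4:**
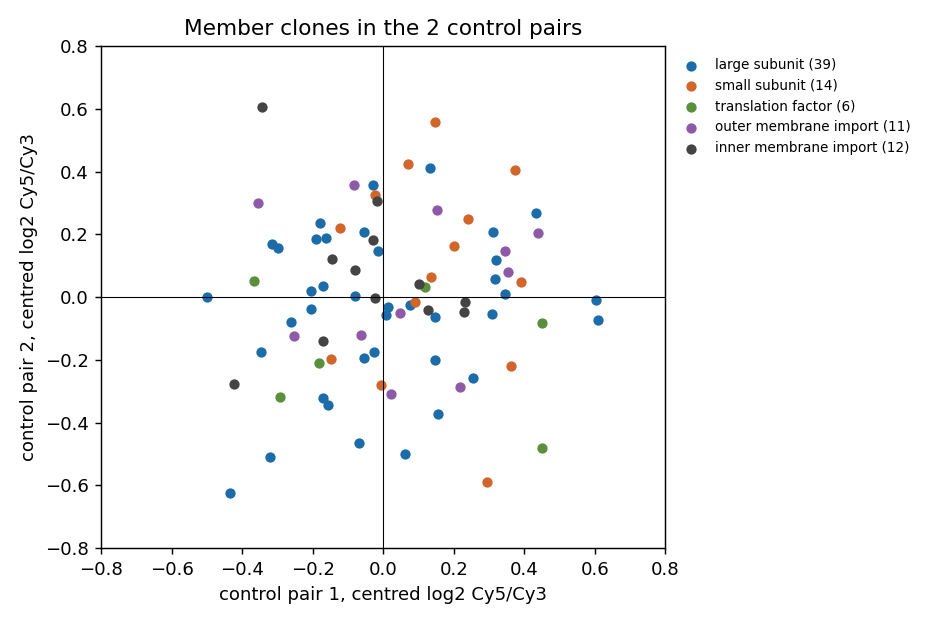
Centred log2 Cy5/Cy3 of the 82 member clones in control pair 1 (horizontal axis) and control pair 2 (vertical axis), coloured by role. The points scatter around 0 in both pairs, from -0.50 to 0.61 in pair 1 and from -0.62 to 0.60 in pair 2.

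Other genes of mitochondrial translation and import, outside the naming rule, were followed as a list of 77 genes, of which 41 have a clone, 54 clones in all. On array 3, 5 were listed higher and 7 lower, on array 4, 7 and 4, and on array 5, 5 and 2. Over all clones these shares were 10.9% and 10.4%, 10.9% and 11.3%, and 11.6% and 10.8%. On 2 or more arrays 4 of the 54 clones were listed higher and 2 lower, against 4.5% and 4.58% of all clones. Listed on 2 arrays in the higher direction were Hspa9, the import motor chaperone, with 0.49 ± 0.13, Hspd1, the chaperonin that folds imported proteins, with 0.52 ± 0.02, Eral1, an assembly factor of the small subunit, with 0.57 ± 0.11, and Fastkd2, an RNA-binding protein needed for large subunit assembly, with 0.61 ± 0.02 (SD, log2, n = 2 each). Their control means were 0.23, 0.30, 0.03 and 0.11. In the control pairs Hspa9 gave 0.44 and 0.02, Hspd1 0.59 and 0.01, Eral1 0.39 and -0.33, and Fastkd2 0.19 and 0.02. Both treated ratios of Hspd1 (0.54 and 0.51) lay below control pair 1, as did that of Hspa9 on array 5 (0.40). Eral1 and Fastkd2 had both treated ratios above both control pairs. Other clones of these genes were not all listed, since the second Hspa9 clone and 1 of 3 Hspd1 clones were unlisted and another Hspd1 clone was higher on array 4 alone, at 0.72. Sars2, the mitochondrial seryl-tRNA synthetase, was listed lower on 2 arrays with -0.67 ± 0.11 (SD, log2, n = 2) against 0.04. Phb2, an inner membrane scaffold protein, was also listed lower on 2 arrays, at -0.69 and -0.41, but higher on array 3 at 0.53, and Tfb2m, a transcription factor of mitochondrial DNA, gave 0.61 and -0.53.

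Promoter sequence gives context for the members listed repeatedly, since nuclear genes for mitochondrial proteins often carry sites for NRF1, ETS factors and YY1, while dexamethasone acts through the glucocorticoid receptor. RefSeq windows on GRCm38.p6, 250 bases before to 50 after the start, matched 62 of the 69 genes, with 69 windows. Of the 10 clones above, 8 have such a window, not Mrpl13 or Mrps35. Shown are the 250 bases before the start, 5′ to 3′ on the gene's strand, for Mrpl44 (chr1:79775768-79776017, plus strand), Mrpl35 (chr6:71823785-71824034, minus strand), Mrps27 (chr13:99344536-99344785, plus strand) and Mrps7 (chr11:115603890-115604139, plus strand), from both subunits and both directions of listing. Capitals mark matches to the searched motifs.
Mrpl44: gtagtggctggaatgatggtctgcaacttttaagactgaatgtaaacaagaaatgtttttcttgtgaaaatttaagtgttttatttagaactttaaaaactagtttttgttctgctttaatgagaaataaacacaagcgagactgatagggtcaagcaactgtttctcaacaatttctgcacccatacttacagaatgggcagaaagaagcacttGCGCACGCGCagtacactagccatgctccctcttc
Mrpl35: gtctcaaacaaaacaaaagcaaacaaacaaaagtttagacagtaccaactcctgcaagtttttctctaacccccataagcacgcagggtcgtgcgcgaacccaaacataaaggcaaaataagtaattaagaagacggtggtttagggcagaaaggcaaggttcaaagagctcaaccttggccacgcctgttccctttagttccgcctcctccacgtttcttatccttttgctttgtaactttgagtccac
Mrps27: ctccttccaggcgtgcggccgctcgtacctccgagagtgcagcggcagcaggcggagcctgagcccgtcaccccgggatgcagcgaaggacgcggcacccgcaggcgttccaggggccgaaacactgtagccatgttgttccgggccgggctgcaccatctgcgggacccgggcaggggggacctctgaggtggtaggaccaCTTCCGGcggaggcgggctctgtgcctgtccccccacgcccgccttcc
Mrps7: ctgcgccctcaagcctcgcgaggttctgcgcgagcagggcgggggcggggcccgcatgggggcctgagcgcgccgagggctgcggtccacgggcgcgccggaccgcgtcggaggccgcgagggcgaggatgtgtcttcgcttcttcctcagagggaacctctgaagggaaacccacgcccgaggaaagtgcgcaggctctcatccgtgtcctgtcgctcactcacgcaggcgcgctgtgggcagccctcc

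The motifs were searched on both strands of the 300 bases. The NRF1 motif, GCGCA and GCGC with 1 free base between them, is in the Mrpl44 window, starting 35 bases before the start, and in 11 of the 69 member windows (15.9%), against 4.6% of all 32851 windows. The ETS motif CCGGAAG is in the Mrps27 window, on the minus strand 48 bases before the start, and in 22 member windows (31.9%), against 8.86%. The YY1 motif AAGATGGCG begins at base 24 after the start in Mrpl35 and at base 15 in Mrps27, beyond the stretch shown, and is in 7 member windows (10.1%), against 1.40%. The glucocorticoid receptor motif, GNACA and TGTNC with 3 free bases between them, is in 0 of the 69 member windows and in 0.475% of all windows. Member windows had a median of 58.0% G and C against 52.7%, so these shares are not matched for base composition. A match is a description of the letters and not a site of binding, and neither Mrps7 nor Mrpl50, listed in opposite directions, holds any of the 4 motifs.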

How the data were processed

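The values the authors deposited are linear spot intensities, whole numbers in 1 column per channel for 15600 clones with 2 spots each. Slides were read on a ScanArray scanner and quantified in Imagene, per the series' design text; background correction, normalisation and the selection of treated spots are not stated in the sources used. Channels were joined into pairs by the numbers in their titles; joined control channels shared all blank spots (178 of 178 and 258 of 258).

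Per spot, log2 Cy5/Cy3 was formed with nothing added. Control pairs were centred by lowess (statsmodels 0.14.6, span 0.2), treated arrays on the midpoint of the gap in their ratios (windows of 150 spots, smoothed with a span of 0.3). Listed spots of a clone were averaged. limma 3.58.1 in R 4.3.3 compared treated with control pairs over 2131 clones valued in both control pairs and on at least 2 treated arrays, and control pairs with 0 over 15561 clones, with p-values adjusted by Benjamini-Hochberg and called under 0.05. The fit was tested on simulated ratios whose missing values did not depend on their size. The simulation thus does not cover the selection of outlying treated ratios. Scaled single channels recombine centred ratios with mean intensities set level between arrays. Clones were named where listed on 2 or more treated arrays, by smallest limma p, by having a second clone, and by the 5 highest and 5 lowest control means; other genes of the pathway where listed on 2 or more arrays. Sequences are RefSeq promoters, since no protein table was used. The members, lists and tests were chosen with earlier results of these data known. All member Entrez identifiers matched the RefSeq table (83 of 83).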

Additional observations from a re-analysis of the deposited data

How the results depend on the processing

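limma called 0 members higher and 0 lower in every alternative that held a member, with the smallest adjusted p of a member between 0.145 and 1.00. This included the 10 channels fitted separately with no replicate block and with a random replicate block for the pair. Each gave 0 higher and 0 lower (smallest adjusted p 0.9996 with no block and 0.237 with the block). The pairing thus changed no call, but with 0 calls in the main fit this cannot show whether it matters. At an unadjusted limma p under 0.05, the main fit had 25.9% of all clones fitted, the random block 19.3% and no block 0.469%. Requiring both spots left no member to fit. In the control pairs 0 members were called in any alternative.

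Requiring both spots listed the same way moved the counts of members to 0 higher and 0 lower on array 3, 2 and 1 on array 4, 0 and 4 on array 5, and 0 and 0 on 2 or more arrays. Median centring gave 1 higher on array 3. On 2 or more arrays, 3 higher and 5 lower became from 1 to 1 higher and from 0 to 4 lower with each treated array left out, as fewer arrays remain. Subunit counts, an alternative added after seeing the data, ran with each treated array left out from 2 to 6 higher and 10 to 15 lower (large) and from 5 to 9 higher and 1 to 3 lower (small). With both spots required they were 0 and 2, and 0 and 1.

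Mrpl13, Mrpl35, Mrpl44 and Mrps35 kept their sign in all 17 alternatives each. A kept sign says little here, since each was listed on the same side of the centre on both of its treated arrays. Some alternatives, such as the intensity trend, also change the p-value and not the difference. Their size did not hold: with scaled spread the differences were -0.42, -0.41, -0.48 and 0.06, median centring gave 0.17 for Mrps35, and the Cy5 channels alone gave -1.59 for Mrpl44, -0.51 for Mrpl35 and 0.27 for Mrps35. With the Cy5 channels alone the difference turned to 0.038 for Mrpl50, 1.94 for Mrps27, -0.45 for Timm50, -0.30 for Mtif2 and -0.047 for Mrps17. Median centring, which moved the median of all clones from 0.02 to -0.23, gave -0.15 for Timm50, -0.025 for Mtif2 and -0.17 for Mrps17, and no centring -0.16 for Timm50 and -0.17 for Mrps17. Scaled spread gave -0.14 for Mrps7 and -0.0056 for Timm50. With 1 pair left out at a time, differences ran from -0.14 to 0.41 for Timm50, -0.24 to 0.69 for Mtif2 and -0.64 to 0.99 for Mrps17. The cause was not tested.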
